A study of Homo sapiens with 18 samples.

Results

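Collagen chains, laminin chains and integrin subunits were followed in MDA-MB-231 cells, a mesenchymal basal line of triple-negative breast cancer, during treatment with the chemotherapeutic doxorubicin and with added ZMYND8, a chromatin reader. Members were all genes whose symbol is COL with a type number, A and a chain number, LAMA, LAMB or LAMC with a chain number, or ITGA or ITGB with its subunit number or letter. Of 60603 annotated genes, 82 were members, namely 44 collagens, 12 laminins and 26 integrins. In the first experiment the cells received no added cDNA beyond what the control label gives as untreated or empty vector (2 libraries), 0.6 µM doxorubicin for 48 h (2 libraries), or a transfected FLAG-tagged ZMYND8 construct and then 0.6 µM doxorubicin for 48 h (2 libraries). In the second, MDA-MB-231 cells that carried an inducible lentiviral vector for GFP or for ZMYND8, selected with G418 and kept in doxycycline at 250 ng/mL, were taken at 0, 6 and 48 h of 0.6 µM doxorubicin (2 libraries at each of the 6 combinations, 12 in all). All 12 had doxycycline and a lentiviral insertion, the controls too. There was 1 cell line for each construct, so the construct and the line cannot be told apart.

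As background, collagens are trimers of α chains. The fibrillar chains (type I, III, V, XI) make fibrils, type IV chains make the network of basement membranes, and type VI chains make beaded filaments. Laminins are trimers of 1 α, 1 β and 1 γ chain and organise the basement membrane. Integrins are αβ pairs at the cell surface: the β1 subunit (ITGB1) pairs with the collagen-binding α1, α2, α10 and α11 and with the laminin-binding α3, α6 and α7, α6 also pairs with β4 (ITGB4) in hemidesmosomes, and αv (ITGAV) pairs with several β subunits that bind fibronectin and vitronectin.

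Total counts per library lay between 18300628 and 23724398 in the inducible experiment. In the transient experiment they lay between 5729294 and 5972396, apart from the second doxorubicin library with 24713822. Between 22477 and 23609 genes had at least 1 count in the inducible libraries at 0 and 6 h, and between 30201 and 30566 at 48 h. ZMYND8 itself was 4.43 times higher in the ZMYND8 line than in the GFP line at 0 h. The transient libraries labelled as overexpressing it had 159 and 124 counts per 1000000 counts of the library (CPM), not above the 181 and 122 CPM of the doxorubicin libraries, and they are called the labelled libraries here. The second doxorubicin library and the second labelled library were also much closer to each other (chi-square per degree of freedom 1.386) than any other pair of transient libraries (9.706 to 55.62). All 5 mesenchymal basal markers of MDA-MB-231 were above 1 CPM in every group. Of 8 fibroblast markers 1 or 2 reached 1 CPM in a group, of 8 leukocyte markers 2 to 4, of 5 endothelial markers 1 to 3, and of 7 luminal markers 3 or 4.

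The cells used a defined part of the family. Per kb of exon and averaged over the 12 inducible libraries, ITGB1 was highest of all members at 197.2 CPM per kb, followed by ITGA3 at 123.7, the laminin β chain LAMB3 at 82.16 and ITGA6 at 64.14 CPM per kb. The highest collagens were COL6A1 (46.66 CPM per kb), the transmembrane COL13A1 (31.43), the fibrillar COL5A1 (26.48), the multiplexin COL18A1 (23.77) and COL6A2 (22.19). Among laminins LAMB2 (39.45), LAMC1 (29.11), LAMA5 (23.04) and LAMB1 (21.53 CPM per kb) followed LAMB3, and among integrins ITGA5 (29.06) and ITGB5 (28.9 CPM per kb) followed ITGA6. A filter on low counts left 70 members in the inducible and 49 in the transient experiment. The 12 that were not tested in the inducible experiment, among them ITGA11, LAMC3, COL2A1 and the leukocyte subunits ITGAL, ITGAD and ITGB7, did not exceed 1.22 CPM in any library. The 33 untested in the transient experiment did not exceed 2.42 CPM, and COL23A1 had 0 counts there in every library. Levels from here on are CPM of the first and the second library of a group. They are not divided by gene length and compare a gene with itself. A value with an SE, the standard error, is a fitted difference on the log2 scale between the groups named.

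At 48 h of doxorubicin in the GFP line, 32 of the 70 tested members rose and 32 fell (edgeR quasi-likelihood test with Benjamini-Hochberg adjustment over all genes, adjusted p at most 0.05), when 32.4% of all 18801 tested genes rose and 31.8% fell. The calls are given here by level. Of the 33 members with a mean of at least 10 CPM over the 12 libraries, 28 fell and 4 rose, with a median log2 fold change of -1.10. That is 84.8% falling, and 46.6% of the 9959 genes at that level fell, with a median of -0.10. Of the 37 members under 10 CPM, 28 rose and 4 fell. That is 75.7% rising, and 31.9% of the 8842 genes under 10 CPM rose. Among them are 8 members with 0 counts at 0 h, which entered the test through other libraries alone. Without such genes 20 of 29 members rose and 4 fell (69% rising), against 29% of 8428 genes. Still among the 29 are ITGA4 and LAMB4, with 1 count at 0 h over both libraries, and ITGA9 and LAMA1, with 3. Such genes too could pass the filter mainly through other libraries, so these shares are a description. Summed over the family, integrin counts dropped from 5434 to 1972 CPM, collagen counts from 2577 to 1301 CPM and laminin counts from 2116 to 1154 CPM (means of 2 libraries). The 5 mesenchymal basal markers of this cell line also all fell at 48 h, their summed level from 7071 to 7079 CPM at 0 h to 3562 to 3658 CPM, with a median log2 fold change of -1.06. The part of this in the drop of the members was not tested. In bulk RNA of this kind, fewer cells of one state and less RNA per cell cannot be told apart. By family the median log2 fold change was -0.83 over 22 integrins, -0.36 over 11 laminins and 0.83 over 37 collagens (0.63 with members at 0 counts placed at their lower bound). None of these 3 medians changed sign when libraries were scaled to total counts, which moved the median of all genes from 0.03 to 0.27.

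**Figure D1:**
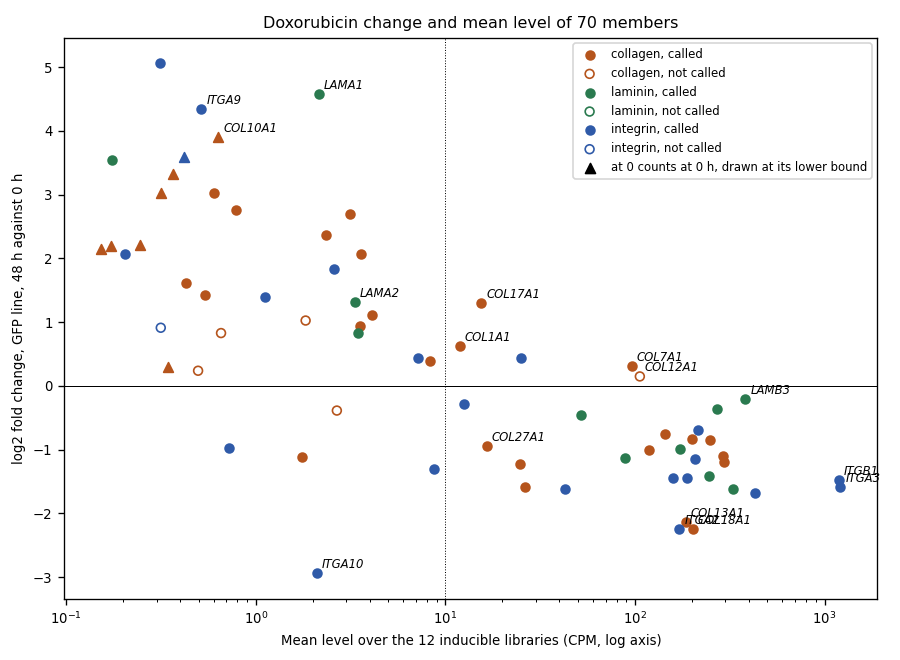
Log2 fold change at 48 h against 0 h of doxorubicin in the GFP line (vertical axis) against the mean level over the 12 inducible libraries in CPM (horizontal axis, log scale) for the 70 tested members. Each point is a member, colour gives the family, triangles mark the 8 members with 0 counts at 0 h at their lower bound, and the dotted line is at 10 CPM; right of it 28 of 33 members fell, left of it 28 of 37 rose.

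Several abundant receptor subunits were among the members that fell. ITGB1 (chr10:32900318-33005792, hg38) had 1487 and 1524 CPM at 0 h and 532 and 545 CPM at 48 h in the GFP line. Both treated libraries lay far below both untreated ones, with a log2 fold change of -1.48 (SE 0.04, edgeR adjusted p = 2.7e-22). Its laminin-binding partner ITGA3 (chr17:50055968-50090481) went from 1443 and 1507 to 485 and 493 CPM, a log2 fold change of -1.59 (SE 0.04). ITGA6 (chr2:172427354-172506459) went from 731 and 744 to 228 and 230.4 CPM (-1.69, SE 0.04 on the log2 scale). ITGB4, with which α6 forms the hemidesmosome receptor, went from 322 and 328 to 120.5 and 117 CPM (-1.45, SE 0.05). Both subunits of the α6β4 pair thus fell, as did both of α3β1. For these 4 genes the 2 libraries of a group differed by far less than the groups.

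All 3 tested collagen-binding α subunits fell. ITGA2 had 331 and 328 CPM at 0 h and 66.9 and 72.03 CPM at 48 h, a log2 fold change of -2.24 (SE 0.05) and the largest fall among integrins above 10 CPM. ITGA1 went from 99.5 and 94.05 to 34.3 and 29.1 CPM (-1.61, SE 0.08), and ITGA10, a low-level member here, from 5.42 and 3.58 to 0.7095 and 0.462 CPM (-2.94, SE 0.32). Neither gene's groups overlapped. The αv family moved less evenly. ITGAV went from 295 and 301 to 136 and 134 CPM (-1.14, SE 0.04) and its partner ITGB5 from 340.5 and 352 to 125 and 129 CPM (-1.45, SE 0.05). ITGB8, another partner, stood at 8.51 and 9.22 and then 3.41 and 3.78 CPM (-1.30, SE 0.15). ITGB3 instead was higher at 48 h, with 11.8 and 11.5 CPM against 9.37 and 7.85 CPM (0.44, SE 0.15), and that call was lost without the second 0 h or the first 48 h library (highest adjusted p 0.15). The fibronectin receptor subunit ITGA5 fell from 253 and 264 to 155 and 163 CPM (-0.70, SE 0.05).

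**Figure D2:**
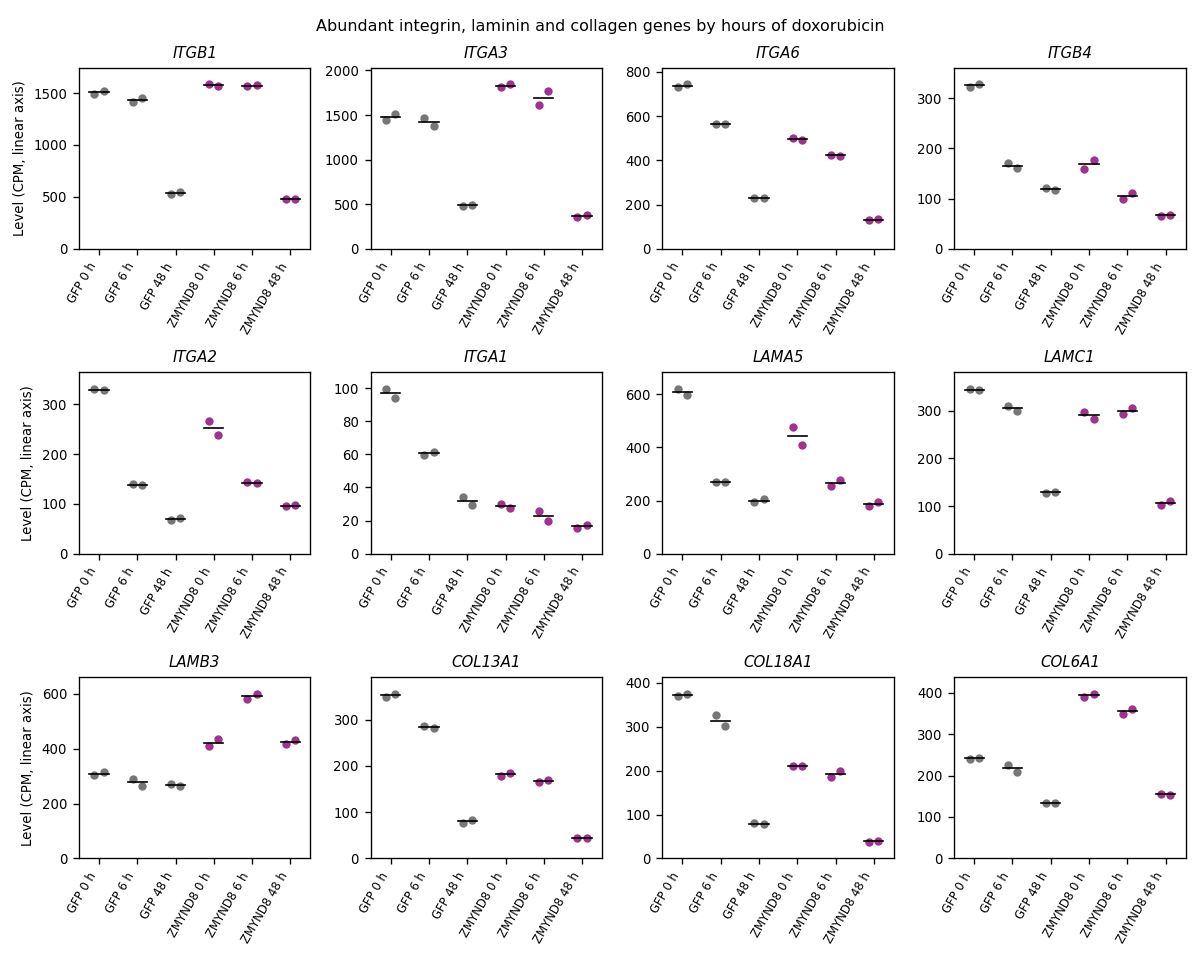
Levels in CPM (linear axes) of 12 members in each of the 12 inducible libraries at 0, 6 and 48 h of doxorubicin. Points are libraries, bars are means of 2, and the 2 colours are the GFP and ZMYND8 lines. In the GFP line ITGB1 and ITGA3 were still near their untreated level at 6 h and well below it at 48 h. In the ZMYND8 line ITGA3 was called lower at 6 h and ITGB1 was not. ITGA2, ITGB4 and LAMA5 were already lower at 6 h in both lines.

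Among laminins, 7 of 11 tested chains fell and 4 rose (31.8% and 32.4% of all genes). LAMA5, an α chain of epithelial and vascular basement membranes, went from 621 and 596 to 193 and 205 CPM (-1.61, SE 0.05). The chain LAMC1, shared by most laminins, went from 346 and 343 to 128 and 130.3 CPM (-1.41, SE 0.04), and LAMB1 from 301 and 292 to 148 and 150.2 CPM (-0.99, SE 0.04). LAMB2 fell less, from 396 and 393 to 300.1 and 314 CPM (-0.36, SE 0.04). LAMA3 and LAMB3 are chains of the epithelial laminin that anchors hemidesmosomes. LAMA3 went from 63.2 and 59.7 to 42.8 and 46.9 CPM (-0.45, SE 0.06). LAMB3 was called slightly lower at 272 and 265 against 303 and 314 CPM (-0.20, SE 0.04), a direction that turned when libraries were scaled to total counts. The risers were chains found at low levels. LAMA2, the α chain of muscle laminin, went from 2.79 and 2.32 to 6.34 and 6.35 CPM (1.31, SE 0.19). LAMA4 went from 2.18 and 1.74 to 2.88 and 4.12 CPM (0.84, SE 0.23), a call lost without the second 48 h library (highest adjusted p 0.097).

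By structural class, 6 of 9 tested fibrillar chains rose and 2 fell, and 6 of 8 fibril-associated chains rose and 1 fell. Of 9 chains of networks and basement membrane 2 rose and 4 fell, and of 6 beaded and anchoring chains 3 rose and 3 fell. Of 5 transmembrane and multiplexin chains 3 rose and 2 fell, the latter COL18A1 and COL13A1. Among all genes 32.4% rose and 31.8% fell. Under 10 CPM, 75.7% of the members of all 3 families and 31.9% of all genes rose. Risers such as COL5A3 and COL14A1 had 0 counts at 0 h and entered the test through other libraries alone. The calls of COL3A1, COL5A3 and COL21A1 were each lost under some alternatives (highest edgeR or DESeq2 adjusted p 0.29, 0.11 and 0.23). The counts by class are thus a description. COL18A1, the multiplexin of basement membranes, went from 370.0 and 376 to 80.7 and 77.5 CPM (-2.24, SE 0.05). Of its exon bases 18.5% lie opposite an exon of SLC19A1. COL13A1, a transmembrane collagen, went from 349 and 356 to 76.5 and 83.5 CPM (-2.14, SE 0.04). The treated libraries of both genes lay far below the untreated ones. Of the fibrillar chains, COL5A1 was the abundant one and fell from 358 and 359.8 to 158 and 155 CPM (-1.20, SE 0.05), while its partner COL5A2, far less abundant, rose from 1.01 and 0.948 to 4.83 and 5.295 CPM (2.36, SE 0.25). COL1A1 rose from 15.2 and 12.9 to 22.2 and 21.4 CPM (0.63, SE 0.11). COL1A2, which completes type I collagen, stood at 2.73 and 0.0527 CPM at 0 h and 3.41 and 2.35 CPM at 48 h, with its untreated libraries far apart, and was not called. COL17A1, the transmembrane collagen of hemidesmosomes, rose from 14.6 and 12.8 to 34.2 and 33.03 CPM (1.30, SE 0.09), opposite in sign to ITGA6 and ITGB4 of the same structure. Of the anchoring fibril chain COL7A1 the levels were 103 and 96.2 and then 119 and 128 CPM (0.31, SE 0.06), and COL12A1 stayed between 85.5 and 99.7 CPM at all 3 times without a call.

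Several members were nearly silent at 0 h and counted at 48 h. Of those, 8 had 0 counts in both untreated GFP libraries, and all 8 were called higher at 48 h. A gene at 0 in these libraries could enter the test only through others, so the count is a description. COL10A1, the short-chain collagen of growth cartilage, had 0 and 0 CPM at 0 h and 2.35 and 2.31 CPM at 48 h, at least 15-fold higher when 3 counts per library are taken as the floor. On the same scale ITGA8, an α subunit of mesenchyme and kidney, was at least 12-fold higher, COL14A1 at least 10-fold and COL28A1 at least 8.19-fold higher. ITGA4, the α4 subunit of leukocyte integrins, of whose exon bases 14.8% lie opposite an exon of CERKL, had 1 count in the untreated libraries together and 49 at 48 h, a ratio of 40.95 (95% counting interval 7.013 to 1650). For ITGA9 the counts were 3 and 78, a ratio of 21.73 (95% counting interval 7.165 to 107.6). COL11A1 went from 0.101 and 0.211 to 0.976 and 1.64 CPM (3.03, SE 0.59), COL24A1 from 0.152 and 0.474 to 1.64 and 2.61 CPM (2.75, SE 0.49) and COL20A1 from 0.152 and 0.211 to 1.197 and 1.22 CPM (2.70, SE 0.47). None of these 9 exceeded 2.61 CPM in a GFP library. They were found in libraries in which 30201 to 30566 genes had at least 1 count, against 22477 to 23609 at 0 and 6 h, and the part of that in their rise was not tested. The 28 risers under 10 CPM spanned a median of 122.7 kb of genome, and the 2821 risers under 10 CPM among all genes a median of 30.57 kb. The 28 fallen members above 10 CPM spanned a median of 98.14 kb and the 4643 such genes 47.15 kb. Members without a call were long too, with a median of 97.33 kb over 6 members of any level, against 17.04 kb for all genes without a call. The summed level of the 8 fibroblast markers was 15.8 to 17.12 CPM at 0 h and 17.02 to 18.05 CPM at 48 h, and that of the 8 leukocyte markers 26.87 to 27.75 and then 25.22 to 26.56 CPM. These sums rest on few genes. Of 5 tested fibroblast markers 3 rose and 0 fell, and among the 5 tested leukocyte markers 3 rose and 1 fell. Of 4 tested endothelial markers 1 rose and 1 fell, and of 7 luminal markers 3 rose and 3 fell. Among all genes under 10 CPM 31.9% rose. The part of the cells these lists stand for in the rise of the low-level members was not tested.

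After only 6 h of doxorubicin the GFP line had 4 members higher and 28 lower, against 22.1% and 25.8% of all genes. Of the 33 members with at least 10 CPM, 22 fell and 1 rose, that is 66.7% falling against 33.3% of genes at that level. Summed laminin counts stood at 72.62% of their untreated level, integrins at 84.53% and collagens at 90.92%. LAMA5 had already dropped to 271 and 269 CPM (-1.17, SE 0.05, edgeR adjusted p = 6.0e-16), ITGA2 to 139 and 139 CPM (-1.25, SE 0.05) and ITGB4 to 170.2 and 160.4 CPM (-0.98, SE 0.05). ITGB1, at 1414 and 1457 CPM, and ITGA3, at 1464 and 1379 CPM, were not called at that time. COL13A1 and COL18A1, which later fell most among collagens, had log2 fold changes of only -0.31 (SE 0.04) and -0.25 (SE 0.04) at 6 h. The 4 members that rose were COL4A1 (0.44, SE 0.04), ITGB8 (1.26, SE 0.12), LAMA1 and COL24A1. ITGB8 went up from 8.51 and 9.22 to 20.6 and 21.9 CPM and then down to 3.41 and 3.78 CPM at 48 h. LAMA1, the α chain of early embryonic basement membrane, had 3 counts in the untreated GFP libraries and 64 at 6 h, a ratio of 21.87 (95% counting interval 7.156 to 108.9). It stayed up at 48 h with 2.17 and 1.81 CPM. The call of COL24A1 was lost without the first library of either group and with DESeq2.

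At 48 h in the ZMYND8 line 24 members rose and 29 fell (31.6% and 30.8% of all genes). Of the 33 members with at least 10 CPM 26 fell, which is 78.8% against 48.2% of genes at that level. Of the 37 below it 20 rose, which is 54.1% against 33.4%. Without genes at 0 counts at 0 h it was 14 of 31, or 45.2% against 30.8%. ITGA8, with 1 count at 0 h over both libraries, is still among the 31. The same 29 members fell in both lines and the same 20 rose in both (41.4% and 28.6% of the 70), against 23.8% and 22.7% of all genes. The 2 lines have no libraries in common. Of the rest, 12 were called higher in the GFP line alone, 2 lower in the GFP line alone and 3 higher in the ZMYND8 line alone, which by itself does not show that the lines differed. Summed integrin counts dropped from 5056 to 1516 CPM, collagens from 2414 to 1103 CPM and laminins from 1734 to 1069 CPM. ITGA3 went from 1811 and 1847 to 357 and 374 CPM (-2.32, SE 0.05), ITGB1 from 1587 and 1572 to 483 and 478 CPM (-1.72, SE 0.04), and ITGA6 from 502 and 492 to 130.4 and 133 CPM (-1.92, SE 0.04). COL18A1 went from 211 and 209.7 to 37.5 and 40.03 CPM (-2.44, SE 0.05), the largest fall of a member above 10 CPM in that line. Of the 24 rises 20 were in members under 10 CPM and 4 in members at or above it, COL17A1 among these. COL20A1 went from 2.57 and 1.97 to 11.6 and 12.7 CPM (2.43, SE 0.22), LAMA2 from 1.28 and 1.62 to 7.07 and 7.18 CPM (2.28, SE 0.21), COL15A1 from 1.28 and 1.44 to 3.94 and 3.74 CPM (1.48, SE 0.23), and COL17A1 from 6.92 and 5.99 to 21.4 and 21.8 CPM (1.75, SE 0.11). COL5A3, with 0 counts in the untreated GFP libraries, rose from 0.167 and 0.262 to 1.62 and 1.44 CPM (2.77, SE 0.55). ITGA7, the laminin-binding subunit of muscle, rose from 0.837 and 1.71 to 3.78 and 2.76 CPM (1.32, SE 0.29), and COL16A1 from 2.29 and 2.01 to 6.01 and 4.802 CPM (1.34, SE 0.21).

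**Figure D3:**
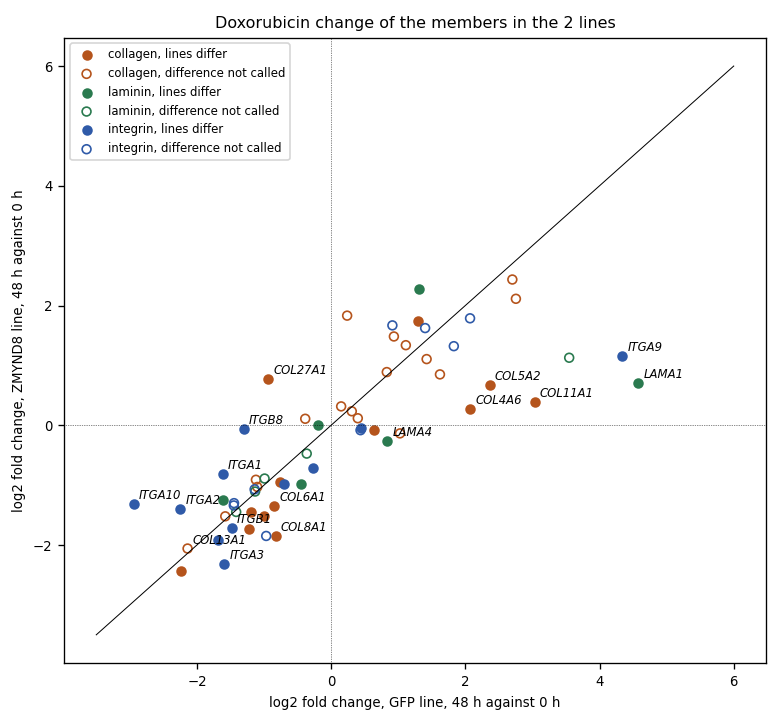
Log2 fold change at 48 h against 0 h of doxorubicin in the ZMYND8 line (vertical axis) and in the GFP line (horizontal axis) for 61 members. The 9 members with 0 counts at 0 h in either line are left out, colour gives the family, and filled points are members whose response differed between the lines; most points lie near the diagonal, and COL27A1 alone was called in opposite directions.

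Whether the response differed between the lines was tested by the interaction of line and doxorubicin. At 48 h, 9 members had a response that was more positive in the ZMYND8 line and 21 one that was more negative (12.7% and 15.8% of all genes). For several abundant subunits the fall was deeper in the ZMYND8 line. The log2 difference was -0.73 (SE 0.06) for ITGA3 (edgeR adjusted p = 6.7e-10), -1.02 (SE 0.07) for COL8A1 and -0.50 (SE 0.06) for COL6A1. COL8A1, a short-chain network collagen, had 274 and 284 CPM at 0 h and 76.4 and 78.7 CPM at 48 h in the ZMYND8 line, and 231 and 244 and then 130.0 and 138 CPM in the GFP line. The collagen-binding subunits went the other way. ITGA2 fell to 95.3 and 96.8 CPM from 267 and 238 CPM in the ZMYND8 line, less than in the GFP line by a log2 difference of 0.85 (SE 0.07), and ITGA1 fell from 30.2 and 27.9 to 15.5 and 17.6 CPM, less by 0.80 (SE 0.13). COL27A1, a fibrillar chain, was the one member called in opposite directions, from 31.3 and 31.6 to 16.6 and 16.2 CPM in the GFP line and from 10.5 and 8.83 to 16.7 and 16.2 CPM in the ZMYND8 line. Its difference was 1.72 (SE 0.15, edgeR adjusted p = 9.5e-10). ITGB8 had 6.47 and 5.68 CPM at 0 h and 5.24 and 6.37 CPM at 48 h in the ZMYND8 line, where it was not called, and its response differed from that in the GFP line by 1.24 (SE 0.21).

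The ZMYND8 line at 6 h had 7 members higher and 23 lower (21.8% and 19.0% of all genes). In that line ITGA2 was 144 and 142 CPM (-0.82, SE 0.05), LAMA5 256 and 278 CPM (-0.73, SE 0.05) and ITGB4 98.7 and 111 CPM (-0.68, SE 0.05), and these 3 had thus fallen early in both lines. ITGA3 was called lower at 6 h in the ZMYND8 line alone, which by itself does not show that the lines differed, and ITGB1 in neither line. A set of 17 members fell at 6 h in both lines (24.3%, against 14.8% of all genes), and COL4A1 and LAMA1 rose in both (2.86%, against 16.1%). The call of LAMA1 in the ZMYND8 line was lost with DESeq2, without the first 0 h library and without the first 6 h library. LAMB3 was called in opposite directions, with 289 and 265 CPM in the GFP line, slightly lower than at 0 h (-0.16, SE 0.04, lost without the second library of either group), and 582 and 600.1 CPM in the ZMYND8 line, up from 409 and 434 CPM (0.49, SE 0.04). By the interaction test at 6 h, 18 members had a more positive response in the ZMYND8 line and 3 a more negative one (7.86% and 5.52% of all genes). Of these 21 calls 16 were kept with total-count scaling and 14 with DESeq2. The split among collagens was 5 and 1, and 2 and 2 with total-count scaling. Of the 33 members with at least 10 CPM, 15 were more positive and 0 more negative, that is 45.5% against 13.6% of genes at that level. The log2 differences were 0.64 (SE 0.06) for LAMB3, 0.44 (SE 0.08) for LAMA5, 0.43 (SE 0.07) for ITGA2 and 0.37 (SE 0.07) for ITGA5. Without the first ZMYND8 6 h library 18 in place of 30 members were called in the ZMYND8 line, and without the second GFP 6 h library 12 in place of 21 interactions.

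Before doxorubicin the 2 lines already differed. At 0 h 20 members were higher and 30 lower in the ZMYND8 line than in the GFP line (28.7% and 29.5% of all genes). At 6 h the counts were 20 and 27 (29.0% and 26.6%), and at 48 h 11 and 37 (28.4% and 31.6%). At all 3 times the same 8 members were higher and the same 21 lower (11.4% and 30% of the 70), against 17.3% and 18.4% of all genes. Among integrins ITGB1 at 0 h had 1587 and 1572 CPM in the ZMYND8 line against 1487 and 1524 CPM, without a call, and ITGA3 was higher by 0.31 (SE 0.04). Other receptor subunits were lower. ITGA1 had 30.2 and 27.9 CPM in the ZMYND8 line and 99.5 and 94.05 CPM in the GFP line (-1.74, SE 0.08), ITGB5 162 and 159 against 340.5 and 352 CPM (-1.11, SE 0.05), ITGB4 159 and 177 against 322 and 328 CPM (-0.95, SE 0.05) and ITGA6 502 and 492 against 731 and 744 CPM (-0.57, SE 0.04). The platelet subunit ITGA2B and the leukocyte subunit ITGAX, both at most 1.90 CPM at 0 h, had log2 differences of -2.33 (SE 0.48) and -1.82 (SE 0.44). Among collagens COL27A1 (-1.71, SE 0.11), COL15A1 (-1.62, SE 0.23), COL9A3 (-1.61, SE 0.32) and COL17A1 (-1.09, SE 0.12) were lower, and COL20A1 was higher by 3.59 (SE 0.42) at 2.57 and 1.97 CPM against 0.152 and 0.211 CPM. LAMA1 had 88 counts in the ZMYND8 line and 3 in the GFP line at 0 h, a ratio of 27.84 (95% counting interval 9.221 to 137.6), and LAMA4, an endothelial α chain, was higher by 1.40 (SE 0.22). Summed marker levels also differed between the lines at 0 h, with 3.76 to 5.077 CPM of the fibroblast list in the ZMYND8 line and 15.8 to 17.12 in the GFP line, 4.853 to 5.411 against 26.87 to 27.75 CPM of the leukocyte list, and 1.836 to 2.064 against 8.255 to 8.746 CPM of the endothelial list. The luminal list had 210.7 to 216.8 CPM in the ZMYND8 line and 419.5 to 425.6 CPM in the GFP line. At 0 h THY1 and NCAM1 had 0 counts in the GFP line, CDH5 and CD3E in the ZMYND8 line, and MS4A1 in both. Their part in these differences was not tested.

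Type IV collagen genes lie head to head in pairs with their starts close together, COL4A1 with COL4A2 on chromosome 13 and COL4A5 with COL4A6 on chromosome X. The windows shown run from 250 bases before to 50 after the RefSeq start of COL4A2 and of COL4A5 in GRCh38.p14, and the other gene of each pair starts on the opposite strand. The start of COL4A1 is 127 bases from that of COL4A2, inside the first window. The annotated starts of COL4A6 are 380 and 1416 bases from that of COL4A5, outside the second. Capitals mark the letters CCAAT (or ATTGG on the other strand) and GGGCGG, which were searched on both strands together with TATAAA.
COL4A1 and COL4A2, chr13:110307034-110307333, plus strand: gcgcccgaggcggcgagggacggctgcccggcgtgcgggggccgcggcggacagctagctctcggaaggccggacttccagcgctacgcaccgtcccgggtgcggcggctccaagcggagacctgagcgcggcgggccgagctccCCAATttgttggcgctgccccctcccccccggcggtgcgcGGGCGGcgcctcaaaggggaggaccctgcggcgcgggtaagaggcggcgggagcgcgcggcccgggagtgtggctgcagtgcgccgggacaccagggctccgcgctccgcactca
COL4A5 and COL4A6, chrX:108439588-108439887, plus strand: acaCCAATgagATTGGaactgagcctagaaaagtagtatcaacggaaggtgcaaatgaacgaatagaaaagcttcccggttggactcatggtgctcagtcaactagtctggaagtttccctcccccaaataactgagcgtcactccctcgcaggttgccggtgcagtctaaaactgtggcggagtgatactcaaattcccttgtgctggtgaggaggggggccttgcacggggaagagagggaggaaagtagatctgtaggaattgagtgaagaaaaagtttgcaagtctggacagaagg
Counted from 1 at its 5′ end, the first window holds CCAAT at position 146 and GGGCGG at position 186, and the second holds CCAAT at position 4 and its reverse complement at position 12. TATAAA is in neither. Of 35116 such windows 34.6% hold CCAAT, 45.0% GGGCGG and 11.5% TATAAA on either strand.

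In the first pair COL4A2 had 401 and 407 CPM at 0 h and 405 and 384 CPM at 6 h in the GFP line and was not called, while COL4A1 rose from 137 and 144 to 194 and 188 CPM (0.44, SE 0.04). By 48 h both had fallen, COL4A1 to 82.8 and 83.2 CPM (-0.76, SE 0.05) and COL4A2 to 194 and 183 CPM (-1.10, SE 0.05). In the ZMYND8 line COL4A1 had 159 and 155, 205 and 222 and 81.9 and 80.7 CPM at 0, 6 and 48 h, and COL4A2 277 and 299.8, 314 and 344 and 143 and 139 CPM. Between the lines at 0 h COL4A2 was lower in the ZMYND8 line (-0.48, SE 0.05) and COL4A1 higher (0.16, SE 0.05), a call lost without the first GFP 0 h library (highest adjusted p 0.087).

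COL4A5 and COL4A6 were both higher in the ZMYND8 line at every time. COL4A5 had 15.6 and 12.6 CPM in the GFP line and 59.7 and 59.2 CPM in the ZMYND8 line at 0 h (2.07, SE 0.09, edgeR adjusted p = 4.1e-17). COL4A6 had 0.354 and 0.685 and 6.25 and 5.77 CPM (3.52, SE 0.31). No GFP library reached the level of any ZMYND8 library of either gene at that time. Under doxorubicin they parted. COL4A5 fell in both lines, to 4.57 and 4.88 CPM (-1.58, SE 0.12) and to 21.4 and 19.97 CPM (-1.52, SE 0.08). COL4A6 rose in the GFP line to 1.91 and 2.48 CPM (2.08, SE 0.35) and stood at 7.68 and 6.8 CPM in the ZMYND8 line, where its log2 fold change of 0.27 (SE 0.20) was not called. The third type IV pair, COL4A3 and COL4A4, did not exceed 4.32 CPM in any library.

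**Figure D4:**
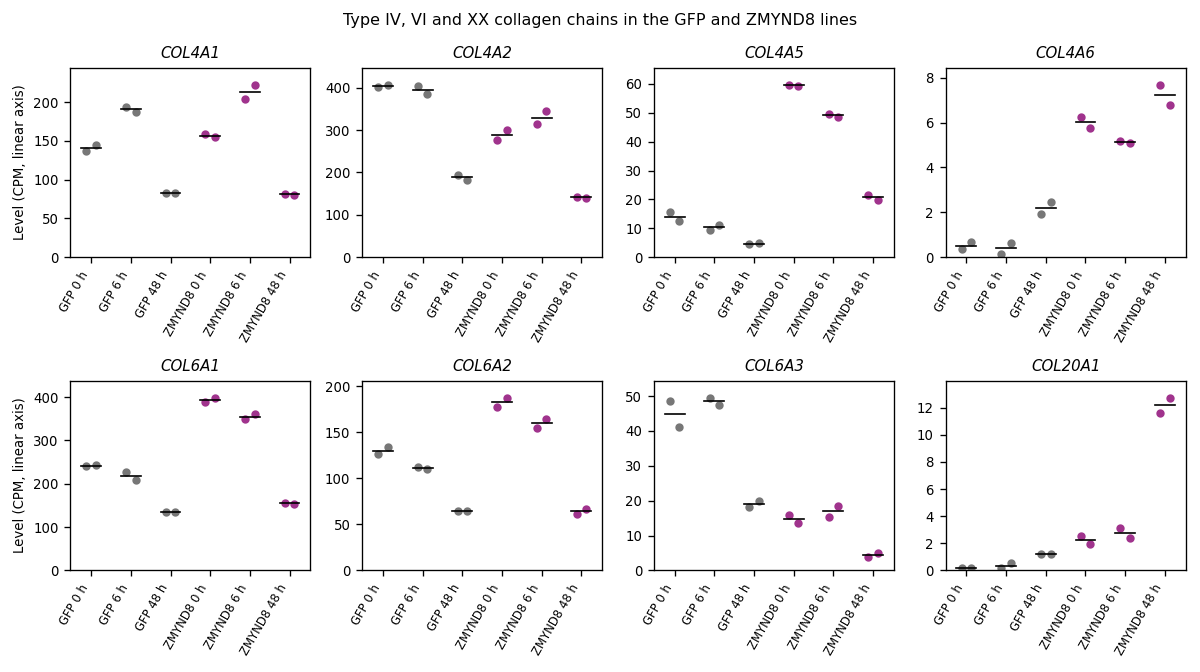
Levels in CPM (linear axes) of type IV chains, type VI chains and COL20A1 in the 12 inducible libraries at 0, 6 and 48 h of doxorubicin. Points are libraries, bars are means of 2 and colours are the GFP and ZMYND8 lines; COL4A5, COL4A6 and COL20A1 were higher in the ZMYND8 line at each time, and COL6A3 was lower.

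Type VI collagen is assembled from α1, α2 and α3 chains, and here the chains split between the lines. COL6A1 and COL6A2, neighbours on chromosome 21, were higher in the ZMYND8 line at 0 h, with 389 and 398 against 240.2 and 243 CPM (0.70, SE 0.04) and 178 and 187 against 126 and 134 CPM (0.49, SE 0.05). COL6A3, on chromosome 2, was lower, with 15.8 and 13.6 against 48.5 and 41.1 CPM (-1.61, SE 0.10). None of the 3 genes' groups overlapped. At 48 h all 3 had fallen in both lines. In the GFP line COL6A1 had 134 and 135 CPM (-0.85, SE 0.04), COL6A2 65.01 and 64.6 CPM (-1.004, SE 0.05) and COL6A3 18.2 and 20 CPM (-1.23, SE 0.10). In the ZMYND8 line they had 156 and 153 (-1.35, SE 0.04), 61.3 and 66.9 (-1.51, SE 0.05) and 3.86 and 4.97 CPM (-1.73, SE 0.14). Each fell more in the ZMYND8 line, with log2 differences between the responses of -0.50 (SE 0.06), -0.51 (SE 0.07) and -0.50 (SE 0.17), and all 3 interactions were called. That of COL6A3 was lost without any 1 of 4 of the 8 libraries, 1 of each group (value -0.69 to -0.33, highest adjusted p 0.25), and those of COL6A1 and COL6A2 held under every alternative run.

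In the transient experiment calls were fewer. Doxorubicin for 48 h raised 1 member and lowered 3 of 49 (2.98% and 2.13% of all 15697 tested genes). With libraries scaled to total counts the split was 3 and 4. Libraries with the same replicate number deviated together, and with the number as a block 4 members were higher and 8 lower (7.54% and 7.81% of all genes). ITGA10 showed the largest fall, from 27.9 and 36.2 CPM to 5.02 and 1.71 CPM, a log2 fold change of -3.47 (SE 0.45, edgeR adjusted p = 0.0049, and 0.00016 with the block). COL1A2 fell from 33.1 and 57.7 to 6.57 and 8.24 CPM (-2.59, SE 0.31), and COL8A1 from 259.8 and 186 to 129.7 and 91.6 CPM (-1.01, SE 0.25). Control and treated libraries of these 3 genes, which were named because they were called, did not overlap. COL15A1 rose from 1.14 and 0.347 to 3.11 and 3.99 CPM (2.29, SE 0.57), a call lost with DESeq2 and without any 1 of the 4 libraries (highest adjusted p over the alternatives 0.31). That of COL8A1 was lost without the first control or the second doxorubicin library (highest adjusted p over the alternatives 0.43). The block added falls of ITGA3, from 2738 and 1918 to 1346 and 929 CPM (-1.03, SE 0.16), of ITGB4, from 673 and 459 to 333 and 224 CPM (-1.02, SE 0.16), of ITGB5 from 253 and 236 to 152 and 153 CPM (-0.68, SE 0.16), and of ITGA6 from 380.3 and 645 to 343 and 275 CPM (-0.71, SE 0.22). COL13A1 had 265 and 269 CPM in controls and 165 and 69.3 CPM after doxorubicin (-1.36, SE 0.25 with the block). With the block COL7A1, ITGA7 and ITGB3 were also higher, by 0.69 (SE 0.18), 1.12 (SE 0.27) and 1.09 (SE 0.33). ITGB1 had 761 and 983 and then 677 and 487 CPM and was not called with or without the block. Laminins had no call of 9 tested in this comparison, and LAMA5 stood at 670.1 and 600.3 CPM and 669 and 604 CPM. Over the families the median log2 fold change was -0.49 for 17 integrins, 0.06 for 9 laminins and -0.02 for 23 collagens, and the last turned to 0.13 with total-count scaling, which moved the median of all genes to 0.15.

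**Figure D5:**
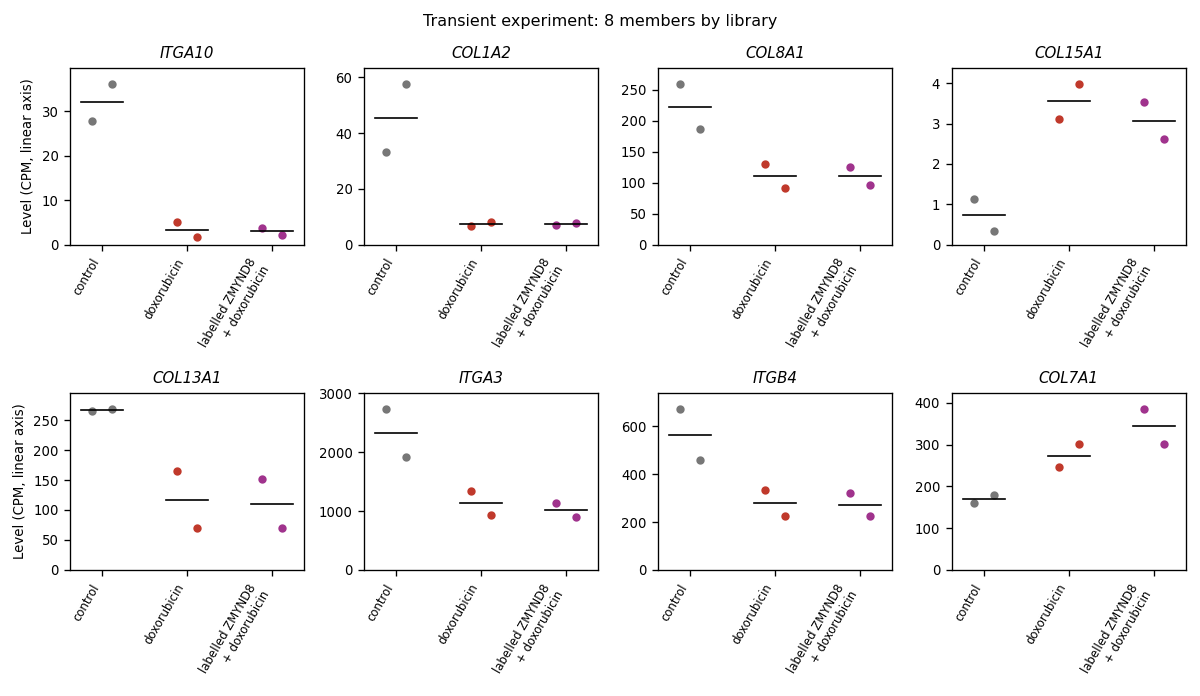
Levels in CPM (linear axes) of 8 members in the 6 transient libraries, grouped as control, doxorubicin 48 h, and labelled ZMYND8 with doxorubicin 48 h. Points are libraries and bars are means of 2; ITGA10, COL1A2 and COL8A1 were lower in both doxorubicin groups than in the control, which the 2 treated groups share as reference.

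The labelled libraries against the same controls had 3 members higher and 6 lower (3.85% and 2.97% of all genes), 4 and 5 with total-count scaling, and 5 and 11 with the block (8.96% and 8.84%). COL1A2 had 6.91 and 7.85 CPM (-2.62, SE 0.32), ITGA10 3.71 and 2.29 CPM (-3.42, SE 0.47) and COL8A1 126 and 96.8 CPM (-1.002, SE 0.25). ITGA3 had 1134 and 903 CPM (-1.19, SE 0.27), ITGB4 319.8 and 225 CPM (-1.05, SE 0.28) and ITGB1 452 and 485 CPM (-0.90, SE 0.24). COL7A1 was higher at 386 and 302 CPM (1.01, SE 0.22), ITGA7 at 17.7 and 11.6 CPM (1.35, SE 0.32) and ITGB3 at 9.26 and 9.64 CPM (1.35, SE 0.35). The calls of COL1A2 and ITGA10 held with any single library left out, and those of the other 7 were each lost without at least 1 library (highest adjusted p over the alternatives 0.16 for COL7A1, 0.24 for COL8A1, 0.21 for ITGA3, 0.29 for ITGB4, 0.22 for ITGB1, 0.22 for ITGA7 and 0.18 for ITGB3). Between labelled and doxorubicin libraries directly, 0 of 49 members were called in either direction (0% of all genes), by edgeR and by DESeq2, and 0 members and 54 of the 15697 genes had an unadjusted edgeR p under 0.05. The median log2 difference over the members was -0.03. For ITGA10 the difference was 0.05 (SE 0.51) and for COL1A2 -0.03 (SE 0.32). The labelled libraries had no raised ZMYND8 level, as given above. Their second library was far closer to the second doxorubicin library (chi-square per degree of freedom 1.386) than libraries within a transient group were to each other (10.68 to 22.66). With 2 libraries a group, an absent effect and the likeness of that pair cannot be told apart here.

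Genes that act with the members were taken from 4 lists, and their counts are to be read against the 31.8% and 30.8% of all genes that fell and the 32.4% and 31.6% that rose at 48 h in the GFP and the ZMYND8 line. Of all genes with at least 10 CPM 46.6% and 48.2% fell. Of 18 tested enzymes and chaperones of collagen modification, 14 fell and 2 rose at 48 h in the GFP line, and 14 fell and 2 rose in the ZMYND8 line, with medians of -0.74 and -0.82 on the log2 scale. LOX, which crosslinks collagen, went from 147 and 145 to 40.5 and 39.6 CPM in the GFP line (-1.87, SE 0.05) and had 29.2 and 28.2 CPM at 0 h in the ZMYND8 line (-2.35, SE 0.06 between the lines). LOXL2 fell from 664 and 679 to 352 and 347 CPM (-0.94, SE 0.04) and the collagen prolyl hydroxylase subunit P4HA1 from 298 and 296 to 131 and 128 CPM (-1.20, SE 0.04). Between the lines at 0 h, 12 of the 18 were lower in the ZMYND8 line and 1 higher (29.5% and 28.7% of all genes). Of 15 other matrix glycoproteins 9 fell and 5 rose in each line at 48 h. FN1, fibronectin and the main ligand of ITGA5, went from 1711 and 1616 to 506 and 512 CPM (-1.71, SE 0.04). SPARC, a collagen-binding matricellular protein, had 161 and 165 CPM in the GFP line and 1.56 and 0.787 CPM in the ZMYND8 line at 0 h, -7.17 (SE 0.11) on the log2 scale. Of 17 integrin adaptors and signalling genes 11 fell and 2 rose in the GFP line, with a median of -0.26, and 12 fell and 0 rose in the ZMYND8 line. The talin gene TLN1 had 656 and 644 and then 597 and 605 CPM (-0.11, SE 0.04). Of 7 other matrix receptors 4 rose and 3 fell in the GFP line, with a median of 0.18, and 2 rose and 4 fell in the ZMYND8 line, with a median of -0.43. The syndecan SDC4 rose from 301 and 301 to 490.3 and 490.5 CPM (0.70, SE 0.05) and the tetraspanin CD151, a partner of laminin-binding integrins, fell from 665 and 641 to 310.2 and 293 CPM (-1.11, SE 0.04). After transient doxorubicin 3 of 17 modification genes, 1 of 9 glycoproteins and 0 of 16 adaptors fell, when 2.13% of all genes fell, and SDC1 rose among 7 receptors (0.98, SE 0.20).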

How the data were processed

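The deposited values are raw counts per gene, 1 table for each experiment. The authors made them with featureCounts (hg38) from poly(A)-selected RNA of 18 libraries, 2 for each of 9 conditions. The header of the transient table gives version 1.6.4, exons of GENCODE release 31, read pairs and strand setting 2. Whether the inducible table was counted with the same settings is not settled here. Their notes list Trim Galore and HISAT2, and their methods TopHat, so the aligner is not settled. Default handling leaves out reads that map to several genes. In the transient table the density of counts on genes antisense to a sense gene was 1.494 to 1.7 times that of the sense gene, so there a gene and its antisense partner cannot be told apart. In the inducible table it was 0.06393 to 0.1044. Of the members 30 have an exon base opposite another gene's exon, and 4 (ITGB7, COL18A1, ITGA4, LAMA1) at least 10% of them. Symbols were matched by Ensembl ID for 60261 of 60603 genes.

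Each table was filtered (filterByExpr), scaled (TMM) and fitted whole with edgeR 4.0.16 in R 4.3.3, and quasi-likelihood p-values were adjusted over all genes of the table (Benjamini-Hochberg, threshold 0.05). CPM use TMM-scaled library sizes and SE is that of the log2 fold change. Values are from 2 libraries a group, which the study calls biological replicates. An exact permutation test of 2 against 2 cannot go below p = 0.333. Groups said not to overlap are therefore a description of the values of genes already called. The share of all genes without overlap was not counted. The lower bound of a fold change against groups at 0 uses a floor of 3 counts per library, and 95% intervals of low ratios are exact binomial, and both cover counting error only. The scripts were tested on simulated data. Members named with the value in every library were the at most 10 largest rises and falls of 4 comparisons (transient doxorubicin, 48 h in each line, and the lines at 0 h) past 1 on the log2 scale and at 1 CPM or more in a group, the 5 highest of each family per kb, and subunit partners. The values of some members are not reported here. Other members are named as examples chosen after their values were seen. Interactions flagged in the closing section were called, at least 1 on the log2 scale, and in genes of at least 1 CPM in a group. Members and lists were chosen with earlier results of these data known. Same-numbered transient libraries had correlated deviations (r 0.203, 0.334 and 0.388 for the 3 pairs of groups). The main transient fit has no block, and a fit with the number as a block is given beside it. In the inducible experiment no pair of groups exceeded 0.1 (15 pairs, -0.145 to 0.0315). Alternatives were RLE and total-count scaling, DESeq2 1.42.0, no filter, the replicate block, the study's criterion, a fold threshold, and each library left out.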

Additional observations from a re-analysis of the deposited data

Results flagged for a closer look

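Doxorubicin responses of 10 members at 48 h and 4 at 6 h differed between the ZMYND8 and the GFP line by at least 1 on the log2 scale, by the interaction term of the edgeR fit with adjustment over all genes. Values are the log2 fold change in the ZMYND8 line minus that in the GFP line. Without the size limit, 12.7% of all genes had a more positive and 15.8% a more negative called response at 48 h. At 6 h these shares were 7.86% and 5.52%. The share of all genes past the size limit was not counted, so the members below are a list only.

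At 48 h the difference was -3.875 (SE 0.617, edgeR adjusted p = 2e-05) for LAMA1, which was almost absent from the untreated GFP libraries (0.101 and 0.0527 CPM) and present in the untreated ZMYND8 libraries (1.62 and 2.58 CPM). The untreated GFP libraries held 3 counts of it together, so the size is uncertain. A similar limit holds for ITGA9 (-3.177, SE 1.015, edgeR adjusted p = 0.019), with 3 counts in the untreated GFP libraries. Its call was lost with DESeq2 and without any 1 of 4 of the 8 libraries (highest adjusted p 0.13). The difference was also negative for COL11A1 (-2.644, SE 0.7852), COL4A6 (-1.804, SE 0.4128), COL5A2 (-1.681, SE 0.3534) and LAMA4 (-1.102, SE 0.3032). These 4 rose in the GFP line, and none but COL4A6 and COL5A2 kept the call of the difference under every alternative. That of COL11A1 was lost with DESeq2 and without any 1 of 3 of the 8 libraries (highest adjusted p 0.13), and that of LAMA4, whose log2 fold change was -0.27 in the ZMYND8 line, without the second GFP 48 h library (0.082). COL5A2 had 1.01 and 0.948 and then 4.83 and 5.295 CPM in the GFP line and 1.73 and 2.099 and then 3.29 and 2.89 CPM in the ZMYND8 line. All 4 were higher in the ZMYND8 line before treatment, COL11A1 at under 1 CPM and with a call of that 0 h difference lost without the first library of either line, and COL5A2 with one lost without the second ZMYND8 0 h library. COL8A1 fell further in the ZMYND8 line by -1.021 (SE 0.06676, edgeR adjusted p = 7.2e-12), with no overlap between the lines at 48 h.

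In the other direction, COL27A1 fell in the GFP line (-0.94) and rose in the ZMYND8 line (0.78), a difference of 1.717 (SE 0.1474, edgeR adjusted p = 9.5e-10). ITGA10 fell less in the ZMYND8 line by 1.615 (SE 0.4842, edgeR adjusted p = 0.013), at levels of 0.7095 and 0.462 CPM and 0.772 and 0.807 CPM at 48 h, and this call was lost without any 1 of 3 of the 8 libraries (highest adjusted p 0.078). ITGB8 differed by 1.237 (SE 0.2069, edgeR adjusted p = 3.8e-05).

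At 6 h ITGB8 rose in the GFP line and differed by -1.079 in the ZMYND8 line (SE 0.1893, edgeR adjusted p = 0.00025), the opposite sign of its difference at 48 h. LAMA1 differed by -3.583 (SE 0.6373), a call lost with DESeq2. LAMA2 fell in the GFP line from 2.79 and 2.32 to 1.101 and 1.02 CPM and had 1.28 and 1.62 and 1.43 and 1.68 CPM in the ZMYND8 line, a difference of 1.347 (SE 0.3681, edgeR adjusted p = 0.014). That call was lost with DESeq2 and without any 1 of 4 of the 8 libraries (highest adjusted p 0.063). ITGA2B differed by 2.544 (SE 0.6918, edgeR adjusted p = 0.013), with at most 1.62 CPM in any of the 8 libraries concerned, and its call was also lost with DESeq2 and without any 1 of 4 of the 8 libraries (highest adjusted p 0.087).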

How the results depend on the processing

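Of 388 results for single members that were called, 278 kept their direction and their call under every alternative run. Of 3709 values under an alternative 3342 kept both, 366 kept the direction and lost the call, and 1 turned, which was LAMB3 at 48 h in the GFP line with 0.044 on the log2 scale under total-count scaling. That scaling moved the median of all genes by more than 0.1 on the log2 scale in the comparisons of 48 h of doxorubicin with untreated cells. In the transient experiment 4 members were called after doxorubicin. Without a filter or with the study's criterion (log2 fold change past 1, unadjusted p at most 0.05) the number was 9, with total-count scaling or DESeq2 7, with the replicate block 12, and without the second library of both treated groups 2. Leaving out single libraries gave 2 to 5, the lowest without the second doxorubicin library. In the labelled libraries 9 members were called against the control, 14 without a filter and 16 with the replicate block. Leaving out single libraries gave 2 to 6, with 4 without the first control, 2 without the first and 3 without the second labelled library. Between labelled and doxorubicin libraries 0 were called under all settings. In the inducible experiment the study's criterion (past 1.5 on the log2 scale) called 3 members at 6 h and 29 at 48 h in the GFP line, 4 and 26 in the ZMYND8 line, 15, 18 and 10 between the lines at 0, 6 and 48 h, and 6 and 9 interactions at 6 and 48 h. An adjusted p together with a change of at least 1 (log2) called 8 members at 6 h in the GFP line, 4 in the ZMYND8 line, 19, 20 and 21 between the lines, and 6 and 10 interactions. Both criteria require a minimum size, and many calls were smaller. The share of all genes was given above for the main fit and the transient block, and was not counted for the other alternatives. The counts in this section therefore describe how the calls of the members moved, and do not set them apart from other genes. Without single libraries 18 to 27 members were called at 6 h in the ZMYND8 line (18 without its first 6 h library) and 12 to 19 interactions at 6 h (12 without the second GFP 6 h library). Inducible libraries share only a replicate number, and the replicate block there gave 32 and 63 members in the GFP line, 29 and 52 in the ZMYND8 line, 50, 47 and 48 between the lines and 18 and 30 interactions. Why the other counts moved was not tested. The transient libraries, all but 1 with 5729294 to 5972396 counts, limit that experiment to members above about 1 CPM, and at 2 libraries a group small changes could not be told from the spread.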
